A study of Mus musculus with 32 samples.

Results

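The step from the middle to the end of the night was examined in interscapular brown adipose tissue (iBAT), by setting the 4 mice killed at Zeitgeber time (ZT) 21 against the 4 mice killed at ZT18. ZT counts the hours after lights on under a 12h:12h light:dark cycle, so ZT12 is the start of the dark, active phase and both time points lie in its later part. The 8 libraries were taken by their time labels from a series of 32, which holds 4 mice at each of 8 time points spaced by 3 h. Mice of both groups were C57BL/6J males of 10 weeks, housed at 22 °C on chow and not fasted before killing, and they differ by design in the time of killing only. Each mouse gave 1 tissue sample and was measured once, so a time point is a set of 4 separate animals and not a course within an animal. All 8 libraries were sequenced on lane 4.

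Circadian clocks rest on a transcriptional loop. BMAL1 (encoded by *Arntl*) pairs with CLOCK or NPAS2 and switches on the *Per*, *Cry* and *Nr1d* genes, whose products then repress the activators. Brown fat burns lipid and glucose to make heat, and in nocturnal rodents clock genes, feeding, body temperature and glucocorticoid hormone all follow daily rhythms that can reach this tissue. Heat shock proteins are chaperones that keep other proteins folded and are induced by the factor HSF1 when proteins unfold, and their genes are known to follow body temperature over the day.

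Of 50686 genes in the count table, 15505 had enough reads to be tested. A total of 320 genes differed between ZT21 and ZT18 in edgeR's quasi-likelihood test at a Benjamini-Hochberg adjusted p under 0.05, which is 2.06% of the genes tested. Of these, 192 (1.24%) were higher and 128 (0.826%) were lower at ZT21. The changes were mostly modest: the median size among the 320 was 0.57 on the log2 scale, or 1.49-fold, and 54 genes differed by more than 2-fold, 32 of them higher and 22 lower. In 305 of the 320 the 4 mice of each time point did not overlap, which follows largely from their being called on these same mice. Over all tested genes 13.0% showed no overlap (7.12% with all ZT21 mice higher and 5.84% with all ZT21 mice lower). The median log2 fold change over all tested genes was -0.01. When libraries were scaled by their total alone in place of TMM, 187 genes passed and the balance of directions turned, with 75 higher (40.1% of calls, against 60% in the main test) and 112 lower.

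**Figure D1:**
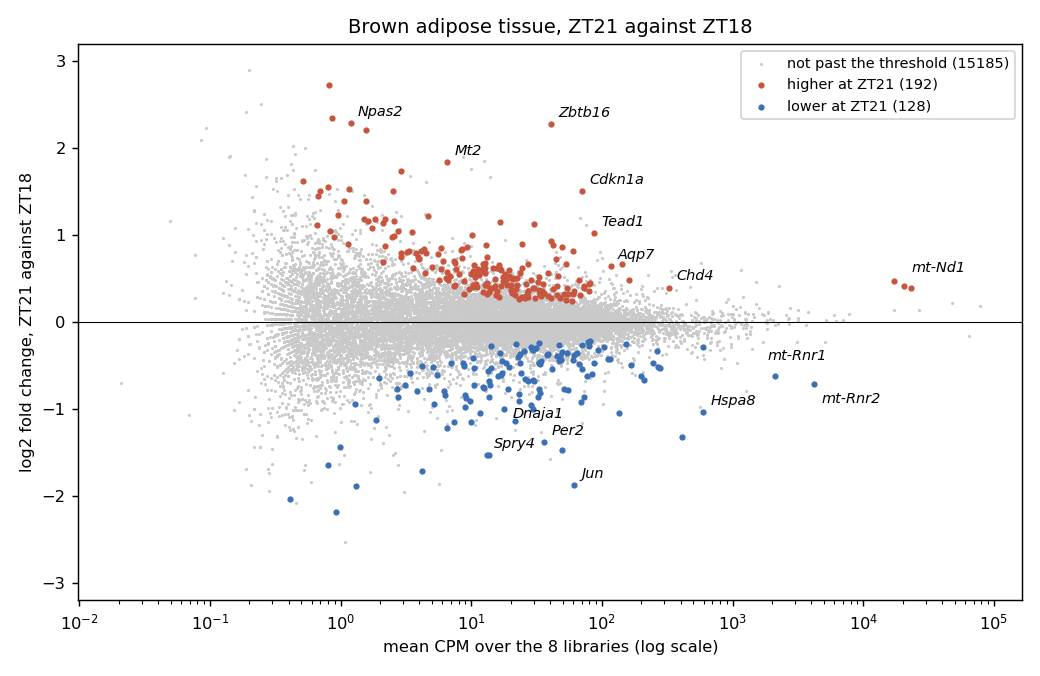
Each point is a gene, with its mean level in TMM-scaled counts (CPM) over the 8 libraries on a log axis and its log2 fold change at ZT21 against ZT18 on the vertical axis. Red points are the 192 genes higher at ZT21, blue points the 128 genes lower at ZT21 and grey points the genes that did not pass the threshold; *Npas2* and *Zbtb16* lie highest among the labelled genes and *Jun* lowest.

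Library totals lay between 17387313 and 18254659 counts, so depth was near equal in the 8 libraries, and 3 reads correspond to between 0.164 and 0.173 CPM. The labelled tissue was borne out by its markers, with *Ucp1*, the uncoupling protein of brown adipocytes, between 955 and 2309 CPM in the 8 libraries. Skeletal muscle transcripts varied strongly between dissections: the 20 muscle markers summed to 73.7, 85.7, 2851 and 7086 CPM in ZT18 mice 1 to 4 and to 3210, 271, 4484 and 100 CPM in ZT21 mice 1 to 4. Thus 2 libraries of each group exceeded 1000 CPM, the ranges overlapped, and none of the 20 markers passed the test, although 19 had negative estimates, with a median of -0.34. With the muscle sum as a covariate 327 genes passed, of which 305 were among the 320. With those 4 libraries left out, 2 mice remained per group and edgeR called 0 genes, with 1323 at an unadjusted p under 0.05. All 320 genes kept their direction, but this was largely fixed in advance. In 305 of them the 4 mice of each time point did not overlap, so a subset of the same mice keeps the sign.

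Among the clock genes, the activators *Npas2* and *Clock* rose, and the repressors *Per2*, *Per3* and *Nr1d2* fell. *Npas2*, which encodes the partner of BMAL1 that can stand in for CLOCK, rose most among called genes without overlap and with a mean of at least 1 CPM over the 8 libraries. That limit was met through the ZT21 mice only, as *Npas2* was below 1 CPM in every ZT18 mouse. It stood at 0.386, 0.331, 0.395 and 0.491 CPM in the ZT18 mice and at 1.98, 1.38, 2.45 and 2.13 CPM in the ZT21 mice. Every ZT21 mouse was above every ZT18 mouse, and the means of 0.401 ± 0.0666 and 1.98 ± 0.449 CPM (SD, n = 4) gave a fitted change of 4.88-fold (log2 fold change 2.29, SE 0.41, edgeR adjusted p = 0.00491). *Clock* itself rose less, from 63.1 ± 3.91 to 84.1 ± 8.78 CPM (log2 fold change 0.41, SE 0.10, edgeR adjusted p = 0.0214), again without overlap. *Arntl* stood at 15.3 ± 2.25 and 20.0 ± 5.90 CPM with overlapping mice, and its 95% interval from -0.10 to 0.88 on the log2 scale includes no change.

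*Per2*, a repressor of the loop, fell most within the clock list. Its levels were 66.0, 55.5, 39.6 and 47.6 CPM at ZT18 and 19.4, 21.9, 20.1 and 18.8 CPM at ZT21. The ZT21 mice lay within a narrow band far below all ZT18 mice, and ZT18 was 2.60-fold higher (log2 fold change -1.38, SE 0.23, edgeR adjusted p = 0.00352). Its paralogue *Per3* fell from 94.2 ± 14.3 to 51.7 ± 8.28 CPM (log2 fold change -0.86, SE 0.19, edgeR adjusted p = 0.0157). *Nr1d2*, which encodes the haem receptor and repressor REV-ERBβ, fell from 43.1 ± 10.7 to 24.4 ± 6.30 CPM (log2 fold change -0.82, SE 0.18, edgeR adjusted p = 0.0174), although the lowest ZT18 mouse at 31.2 CPM nearly met the highest ZT21 mouse at 31.1 CPM. In all, 2 of the 19 clock genes rose and 3 fell, against 1.24% and 0.826% of all tested genes. Of the 19 estimates 14 were negative, with a median of -0.26 against -0.01 over all genes.

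The remaining clock genes did not pass. *Dbp*, the D-box activator, ranged from 9.17 to 12.7 CPM at ZT18 and from 4.40 to 7.81 CPM at ZT21, so its mice did not overlap either, but its adjusted p was 0.0643 in edgeR's test. *Cry2* likewise showed no overlap (59.8 ± 5.76 against 45.1 ± 3.22 CPM, edgeR adjusted p = 0.102). *Cry1* (34.5 ± 3.75 against 33.9 ± 2.00 CPM) and *Nr1d1* (19.7 ± 6.73 against 19.1 ± 3.43 CPM) had estimates near 0, whose sign changed when single mice were left out.

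Clock proteins act through short DNA elements, and the promoters of the list were therefore searched. RefSeq promoter sequence (GRCm38.p6, the 250 bases before the transcription start, both strands) was held for 16 of the 19 clock genes. The E-box bound by BMAL1 complexes, CACGTG, was found in 5 of these 16 (*Bhlhe41*, *Ciart*, *Cry1*, *Per1* and *Tef*), or 31.2%, against 6.86% of all 27025 genes with a promoter. None of these 5 passed the test of ZT21 against ZT18. Of the called genes with a promoter, 8.97% of those higher and 11.4% of those lower at ZT21 held an E-box. The D-box bound by DBP, TEF and HLF, TTATGTAA, was found in the promoter of *Per3* alone among the 16, against 0.977% of all genes. Of all called genes with a promoter, 3 of 88 lower and 0 of 145 higher at ZT21 held a D-box. *Per3* is the only called gene of the 16 with such an element, so both its copies are shown. The copies are printed 5′ to 3′ on the strand of the gene, with the element in capitals. They lie on the minus strand of chromosome 4 at chr4:151044852-151044881 and chr4:151044805-151044834.
Per3 upstream copy: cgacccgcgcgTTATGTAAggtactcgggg
Per3 downstream copy: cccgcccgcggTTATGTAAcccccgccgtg
The 2 elements end 198 and 151 bases before the start of *Per3*. A match describes these letters and does not show binding.

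**Figure D2:**
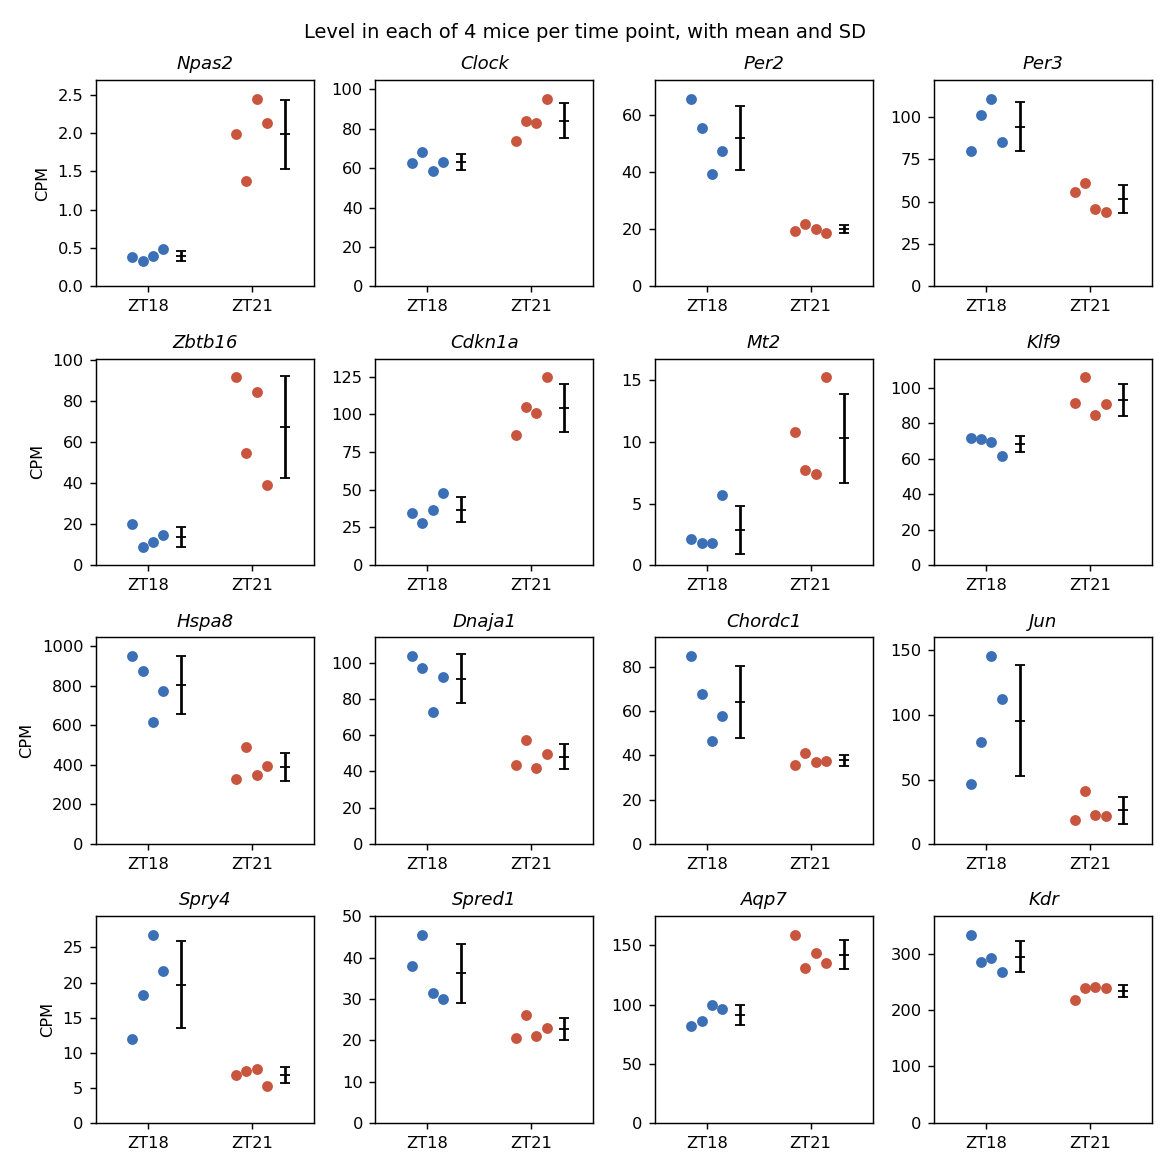
Level in CPM of 16 genes that passed the threshold, with each of the 4 mice at ZT18 (blue) and ZT21 (red) as a point and the mean with its SD as a black bar, each axis starting at 0. The 4 mice of ZT21 lie apart from the 4 of ZT18 in every panel, with a narrow gap for *Jun* (41.3 CPM in the highest ZT21 mouse and 46.3 CPM in the lowest ZT18 mouse).

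Genes known to respond to glucocorticoids, the adrenal hormones whose level follows the day, included 4 that rose and none that fell among the 17 tested, against 1.24% and 0.826% of all genes. *Zbtb16*, which encodes the transcription factor PLZF, stood at 20.3, 8.72, 11.6 and 14.8 CPM at ZT18 and at 91.6, 54.6, 84.3 and 39.0 CPM at ZT21. No mice overlapped, although the ZT21 mice varied among themselves, and the change was 4.86-fold (log2 fold change 2.28, SE 0.48, edgeR adjusted p = 0.0140). The higher ZT21 values were those of mice 1 and 3, which had muscle transcripts above 1000 CPM, and without the 4 libraries rich in muscle transcripts the estimate was 1.69. *Cdkn1a*, which encodes the cell cycle inhibitor p21, rose from 34.3, 28.1, 36.4 and 48.1 CPM to 86.4, 105, 101 and 124 CPM. This 2.84-fold change (95% interval 1.04 to 1.97 on the log2 scale, edgeR adjusted p = 0.00164) also placed *Cdkn1a* among the 5 largest rises in CPM of called genes without overlap.

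*Mt2*, a metal-binding metallothionein, stood at 2.09, 1.82, 1.80 and 5.73 CPM at ZT18 and at 10.8, 7.75, 7.40 and 15.2 CPM at ZT21. All ZT21 mice were higher (log2 fold change 1.84, SE 0.47, edgeR adjusted p = 0.0358), and without the high ZT18 mouse 4 the estimate was 2.43. The antisense gene *Gm45774* overlaps 73.5% of the exonic bases of *Mt2*, and as the strand setting of the counting is not given, reads of the pair cannot be told apart. Its neighbour *Mt1* stood at 47.6 ± 6.66 and 46.2 ± 2.72 CPM and did not pass. *Klf9*, a transcription factor of the same list and of the clock outputs, rose from 68.4 ± 4.58 to 93.2 ± 8.93 CPM (log2 fold change 0.45, SE 0.11, edgeR adjusted p = 0.0276).

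The list had 10 positive and 7 negative estimates and a median of 0.03. *Nr3c1*, which encodes the glucocorticoid receptor, had all ZT21 mice below all ZT18 mice (145 ± 16.6 against 118 ± 5.70 CPM, edgeR adjusted p = 0.0566). So had *Tsc22d3*, encoding the glucocorticoid-induced protein GILZ (66.8 ± 3.82 against 58.0 ± 2.40 CPM, edgeR adjusted p = 0.630). *Fkbp5*, a chaperone of the glucocorticoid receptor and a common readout of the hormone, stood at 10.8 ± 4.03 and 16.1 ± 4.15 CPM with overlapping mice (edgeR adjusted p = 0.468). *Angptl4*, an inhibitor of lipoprotein lipase that is in both this list and the lipoprotein lipase list, spread from 118 to 422 CPM at ZT18 and from 201 to 430 CPM at ZT21. Its interval from -0.51 to 1.29 on the log2 scale does not settle a direction.

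Outside this list, the zinc exporter gene *Slc30a1* rose from 13.1 ± 1.95 to 20.0 ± 1.84 CPM (log2 fold change 0.61, SE 0.13, edgeR adjusted p = 0.0125). The zinc importer gene *Slc39a10* fell from 26.1 ± 4.20 to 19.7 ± 1.08 CPM (log2 fold change -0.40, SE 0.11, edgeR adjusted p = 0.0437), a call lost in 11 of 18 alternatives. Both were singled out beside *Mt2* after their values were seen.

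Part of the heat shock and chaperone genes fell between ZT18 and ZT21. Of the 22 tested, 6 passed the threshold, all lower, against 0.826% of all tested genes. Of the 22 estimates 18 were negative. The median of the list was -0.23 on the log2 scale against -0.01 over all genes. *Hspa8*, which encodes the constitutive HSP70 protein HSC70, was the most abundant of the 6 and stood at 948, 876, 615 and 774 CPM at ZT18 and at 331, 489, 348 and 395 CPM at ZT21. No mice overlapped, and ZT18 was 2.06-fold higher (log2 fold change -1.04, SE 0.19, edgeR adjusted p = 0.00500).

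The J-domain genes *Dnaja1*, *Dnajb1* and *Dnajb4*, whose products hand substrates to HSP70, were among the other 5. *Dnaja1* stood at 104, 96.8, 72.5 and 91.9 CPM at ZT18 and at 43.7, 57.5, 41.8 and 49.5 CPM at ZT21 (log2 fold change -0.92, SE 0.17, edgeR adjusted p = 0.00503). *Dnajb1* fell from 41.8 ± 8.28 to 23.0 ± 3.49 CPM and *Dnajb4* from 56.2 ± 1.98 to 41.6 ± 2.44 CPM. *Chordc1*, an HSP90 partner, fell from 64.1 ± 16.2 to 37.7 ± 2.26 CPM and *Bag3*, an HSP70 partner in autophagy, from 38.3 ± 4.17 to 27.7 ± 1.52 CPM, the latter at an edgeR adjusted p of 0.0434 that was lost in 11 of 18 alternatives. Relatives outside the list went the other way: *Dnajc18*, another J-domain gene, rose from 9.47 ± 0.437 to 15.1 ± 0.795 CPM (edgeR adjusted p = 0.00438), and *Bag4*, a relative of *Bag3*, rose as well (log2 fold change 0.43, SE 0.10, edgeR adjusted p = 0.0160), both without overlap and both chosen after their values were seen.

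*Hsph1*, *Hspa1a* and *Hspa1b* had negative estimates without passing, while *Hsp90aa1*, *Hspa4l*, *Cryab* and *Hspd1* had small positive ones. *Hsph1*, an HSP110 chaperone, stood at 128.6, 101, 56.9 and 100.0 CPM and at 36.6, 64.6, 38.8 and 32.3 CPM, with 1 mouse of each group overlapping (edgeR adjusted p = 0.0563). *Hspa1b* and *Hspa1a*, 2 near-identical HSP70 genes between which reads can be split, stood at 4.19 ± 1.54 against 1.34 ± 0.252 CPM and at 3.06 ± 0.925 against 1.17 ± 0.491 CPM. Their mice did not overlap, at adjusted p of 0.0793 and 0.141 in edgeR's test. *Hspd1*, the mitochondrial HSP60 gene, stood at 499 ± 42.6 and 520 ± 15.7 CPM, and its interval runs from -0.14 to 0.26 on the log2 scale. In the endoplasmic reticulum, *Hsp90b1*, encoding the chaperone GRP94, was the only called gene of 22, against 2.06% of all tested genes (166 ± 12.1 against 139 ± 12.1 CPM, edgeR adjusted p = 0.0450). Its mice overlapped, and the call was lost in 11 of 18 alternatives.

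The element bound by HSF1 was sought as the units GAA, TTC and GAA, each spaced by NN, in the 17 heat shock list promoters held. It was found in 2 of them, or 11.8%, against 0.514% of all genes. These were *Hspd1* and *Hspe1*, neighbours on opposite strands whose matches are the same bases, and neither passed the test. The stretch is shown as the counterpart of the genes that fell, of which *Dnaja1*, *Dnajb1*, *Dnajb4*, *Chordc1* and *Bag3* had a promoter without these letters. The element is in capitals on the plus strand of chromosome 1 at chr1:55088056-55088085, and a second, overlapping match starts 5 bases upstream.
Hspe1 element: ccgttctaGAACCTTCCGGAAggccccgcg
Absence of the letters from this window says nothing on HSF1 at these genes.

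Copies of chaperone genes were also among the genes that fell. Of 11 pseudogenes lower at ZT21, *Gm15459*, *Gm8355*, *Gm6210* and *Gm7899* share 72.9%, 36.8%, 15.0% and 0.834% of their 100-base stretches with *Hspa8* transcripts. *Gm15542* and *Gm7816* share 65.5% and 45.8% with *Dnaja1*, *Gm12183* shares 17.3% with *Ddx5* and *Gm9134* shares 40.0% with *Srsf10*. How far their counts hold reads of the parent genes was not tested, so their values are uncertain. Among the 10 lowest genes by the naming rule, *Gm6210*, *Gm7816* and *Gm8355* are of this kind.

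The heat shock genes were then set against the other 3 h step of the night that lies within a lane, ZT15 against ZT12 on lane 3, which shares no library with the late step. The difference of the 2 steps passed the test for 1035 of 15505 genes (6.68%), 239 of which were among the 320. In the heat shock list it passed for 16 of 22, and each of the 16 had a positive early step and a negative late step. *Hspa1b* gave the lowest step difference among genes of at least 1 CPM past the threshold, with an early step of 3.33 and a late step of -1.64 (difference -4.97, SE 0.71, edgeR adjusted p = 9.65e-05). *Hspa1a* (difference -4.58, SE 0.69) and *Hsph1* (difference -3.78, SE 0.47) followed the same course. *Hspa8* had an early step of 0.91 and a late step of -1.04 (difference -1.95, SE 0.26, edgeR adjusted p = 5.83e-05).

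**Figure D3:**
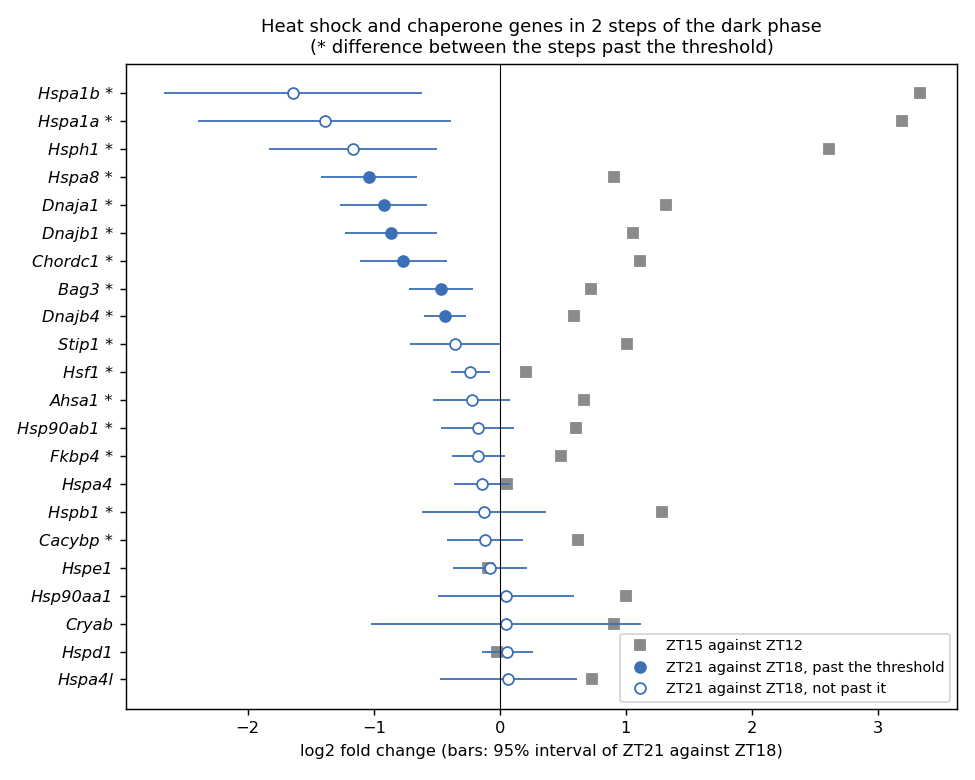
Log2 fold change of the 22 heat shock and chaperone genes, with the late step (ZT21 against ZT18) as circles with 95% intervals, filled for the 6 genes past the threshold, and the early step (ZT15 against ZT12) as grey squares. Asterisks mark the 16 genes whose 2 steps differ in the test, and *Hspa1b* spans the widest range, from 3.33 to -1.64.

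Over the whole day *Hspa8* stood at 335 ± 52.7 CPM at ZT12, 628 ± 78.9 at ZT15, 803 ± 145 at ZT18, 391 ± 70.7 at ZT21 and 727 ± 166 at ZT0. The ZT21 mean thus lay below those of ZT18 and ZT0. The same held for *Hsph1*, *Dnaja1* and *Chordc1*, with ZT0 at 174 ± 63.6, 130 ± 31.5 and 88.7 ± 19.4 CPM, but these 3 had a higher mean at ZT15 (127, 116 and 69.0 CPM) than at ZT18 (96.7, 91.2 and 64.1 CPM). ZT0 was sequenced on lane 2 and ZT15 on lane 3, so levels across these points cannot be told apart from the lane. *Cdkn1a* was highest of the 8 time points at ZT21 (104 ± 15.7 CPM) and stood at 90.1 ± 22.5 CPM at ZT0, whereas *Zbtb16* was highest at ZT21 and stood at 18.3 ± 5.09 CPM at ZT0.

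**Figure D4:**
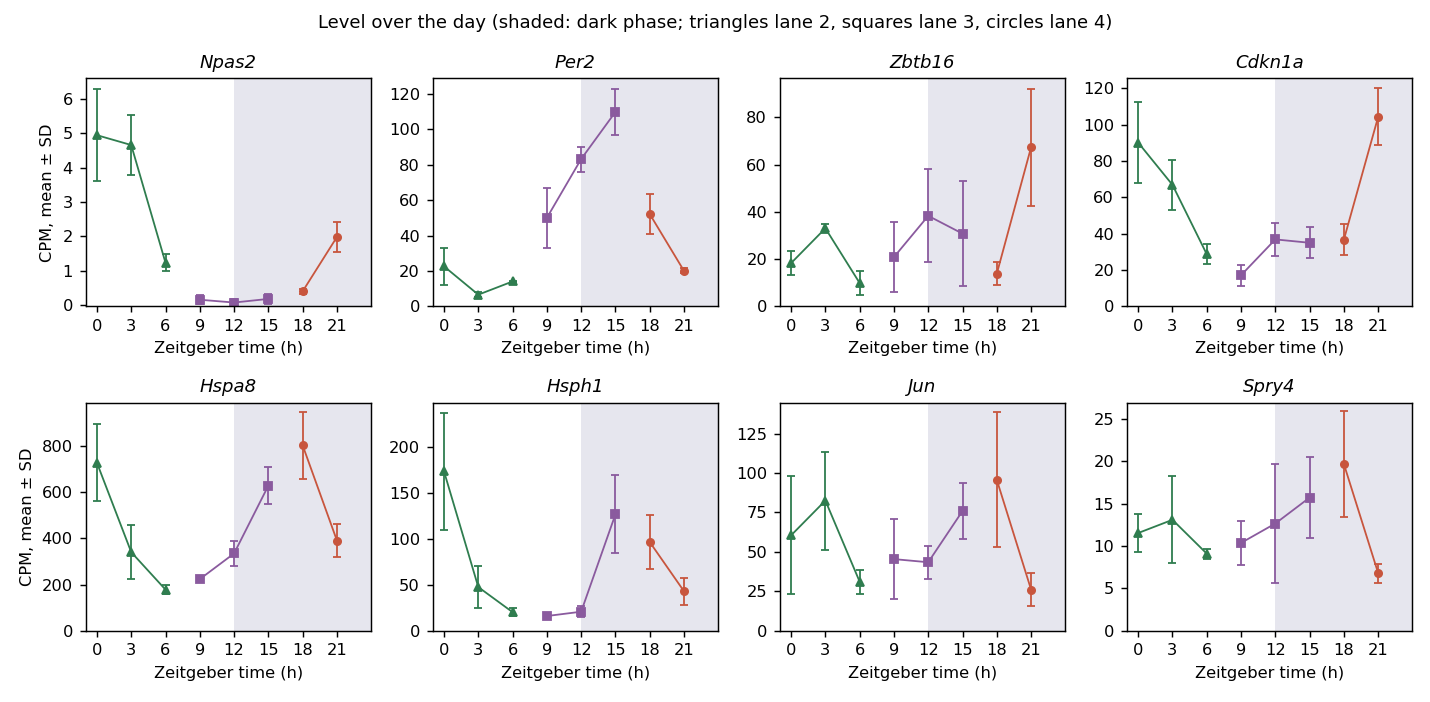
Mean level in CPM with SD (n = 4 mice) of 8 genes at the 8 time points, with the dark phase shaded and the sequencing lane given by the symbol and broken line. *Hspa8* falls from 803 to 391 CPM and *Cdkn1a* rises from 36.8 to 104 CPM in the lane 4 segment from ZT18 to ZT21.

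Immediate early genes, which respond to a stimulus within minutes, gave 2 falls and no rise among 22, against 0.826% and 1.24% of all tested genes. *Jun*, encoding an AP-1 subunit, stood at 46.3, 78.8, 146 and 112 CPM at ZT18 and at 18.8, 41.3, 22.7 and 21.6 CPM at ZT21. The groups did not overlap, but ZT18 mice varied widely among themselves, and ZT18 was 3.67-fold higher (log2 fold change -1.87, SE 0.43, edgeR adjusted p = 0.0194). *Klf6*, a zinc finger factor, fell from 63.8, 71.5, 83.6 and 61.1 CPM to 33.4, 40.3, 43.1 and 46.2 CPM (log2 fold change -0.78, SE 0.15, edgeR adjusted p = 0.00768). The list had 17 negative estimates and a median of -0.44, and *Atf3*, a stress-induced factor, stood at 3.85 ± 1.80 and 1.34 ± 0.562 CPM without overlap at an edgeR adjusted p of 0.0772. The kinase gene *Plk3*, another of the 10 lowest genes, fell from 6.44 ± 3.17 to 1.96 ± 0.851 CPM (log2 fold change -1.71, SE 0.41, edgeR adjusted p = 0.0235).

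*Jun* and *Plk3* were highest in ZT18 mouse 3, and *Jun* next in mouse 4, the ZT18 mice with muscle transcripts above 1000 CPM. Without the 4 libraries rich in muscle transcripts their log2 fold changes were -0.99 and -0.82, and the part of muscle in their fall was not tested. With muscle as a covariate both remained past the threshold.

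Some feedback inhibitors of the Ras and ERK growth factor pathway were also among the genes that fell. *Spry4*, among the 10 lowest genes, stood at 12.0, 18.3, 26.8 and 21.7 CPM at ZT18 and at 6.85, 7.46, 7.68 and 5.23 CPM at ZT21. All ZT21 mice were lower (log2 fold change -1.53, SE 0.30, edgeR adjusted p = 0.00750). After *Spry4* had been seen, a list of 14 Sprouty, Spred, DUSP and ETS genes of this pathway was drawn up. Of the 12 tested, 4 fell and none rose, against 0.826% and 1.24% of all tested genes. There were 9 negative and 3 positive estimates, with a median of -0.64. Since the list was made after the values were known, this count is a description only.

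The other 3 called members were *Spry2* (16.8 ± 2.00 against 10.5 ± 2.50 CPM), *Spred1* (36.2 ± 7.06 against 22.7 ± 2.56 CPM) and *Dusp6*, an ERK phosphatase. *Dusp6* stood at 38.4, 78.2, 79.4 and 94.0 CPM at ZT18 and at 18.5, 43.1, 14.9 and 27.9 CPM at ZT21, so that 1 mouse of each group overlapped (log2 fold change -1.48, SE 0.37, edgeR adjusted p = 0.0335). Its estimate was -0.71 without the 4 libraries rich in muscle transcripts. *Dusp4*, *Spry1* and *Spred2* showed no overlap, with log2 fold changes of -1.26, -0.61 and -0.45, at edgeR adjusted p of 0.0540, 0.0637 and 0.0561.

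Genes of the mitochondrial genome moved apart from each other. The mitochondrial ribosomal RNAs *mt-Rnr1* and *mt-Rnr2* fell, while *mt-Nd1*, *mt-Nd2* and *mt-Nd5*, which encode subunits of respiratory complex I, rose. *mt-Rnr2* stood at 5999, 5593, 4292 and 5119 CPM at ZT18 and at 2745, 4140, 2761 and 3210 CPM at ZT21 (log2 fold change -0.71, SE 0.17, edgeR adjusted p = 0.0276). *mt-Rnr1* fell from 2546 ± 316 to 1651 ± 91.8 CPM (log2 fold change -0.63, SE 0.15, edgeR adjusted p = 0.0267). The groups overlapped for neither rRNA.

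Among the messenger RNAs, *mt-Nd1* stood at 16340, 16370, 19820 and 17980 CPM at ZT18 and at 24810, 23990, 22810 and 22010 CPM at ZT21, all ZT21 mice being higher (log2 fold change 0.41, SE 0.08, edgeR adjusted p = 0.00783). *mt-Nd2* rose by 0.40 (SE 0.09) and *mt-Nd5* by 0.47 (SE 0.13), the latter at an edgeR adjusted p of 0.0471 that became 0.0591 with muscle as a covariate and was lost in 11 of 17 alternatives. *mt-Co1*, the mitochondrial gene with the most assigned reads, stood at 72780 ± 3321 and 82680 ± 5923 CPM and did not pass. *mt-Cytb* stood at 44310 ± 2348 and 51660 ± 2335 CPM without overlap, at an edgeR adjusted p of 0.174.

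Genes of the mitochondrial genome took 19.6% ± 1.18 of all counts at ZT18 and 22.5% ± 1.22 at ZT21 (SD, n = 4), and the 2 rRNAs took 4.05% ± 0.723 and 2.15% ± 0.406 of the mitochondrial counts. The rRNA share lay between 3.17% and 4.84% at ZT18 and between 1.77% and 2.72% at ZT21, with no overlap. As these genes hold such a part of each library, their rise also bears on levels scaled by the library total, and the test without them called 322 genes.

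*mt-Co2*, *mt-Co3*, *mt-Atp6*, *mt-Nd3* and *mt-Nd4l* share between 97.6% and 99.9% of their 100-base stretches with other annotated genes, and their mean levels lay between 5.67 and 89.5 CPM. The 5 called genes share no more than 3.19%. The estimates of the former group, all negative, rest on the reads that were assigned to them.

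**Figure D5:**
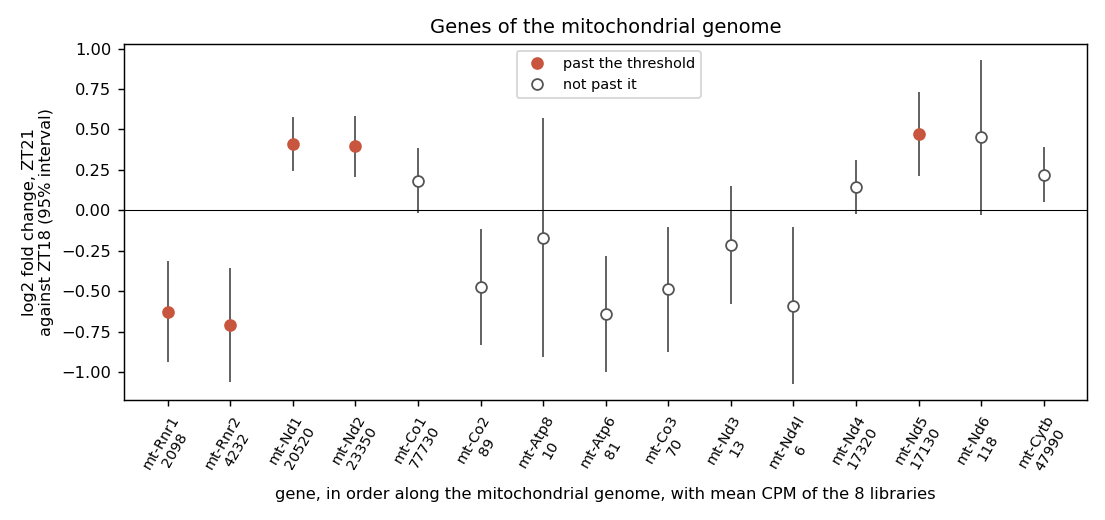
Log2 fold change at ZT21 against ZT18 with its 95% interval for the 15 genes of the mitochondrial genome in their order along it, each with its mean CPM over the 8 libraries, filled where the gene passed the threshold. The 2 rRNA genes lie at -0.63 and -0.71 and the 3 called complex I genes between 0.40 and 0.47.

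Among the nuclear genes of energy and lipid metabolism, calls were few, as they were over all genes (2.06%), so that a list of this size with none is near the background. No gene passed among 15 tested of the lipoprotein lipase pathway, 19 of de novo lipogenesis, 27 of thermogenesis, 27 of fatty acid oxidation, 19 of the tricarboxylic acid cycle, 45 nuclear genes of oxidative phosphorylation, 27 of glucose uptake and glycolysis or 19 of glycogen metabolism. The medians of these 8 lists lay between -0.08 and 0.10 on the log2 scale. *Lpl*, whose product frees fatty acids from circulating lipoproteins, stood at 3340 ± 443 and 2847 ± 151 CPM (log2 fold change -0.23, 95% interval -0.48 to 0.02). *Fasn*, the fatty acid synthase, stood at 25290 ± 5063 and 27830 ± 5430 CPM, a log2 fold change of 0.14 with an SE of 0.48. *Ucp1* stood at 1275 ± 334 and 1757 ± 489 CPM, with an interval from -0.12 to 1.04.

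Calls in neighbouring lists were single genes, against 2.06% of all tested genes. *Aqp7*, the channel through which adipocytes release glycerol, rose from 82.3, 86.5, 99.9 and 95.8 CPM to 159, 131, 144 and 135 CPM, the only call among 13 lipolysis genes (log2 fold change 0.64, SE 0.11, edgeR adjusted p = 0.00462). *Stard4*, which carries cholesterol between membranes, fell from 16.0 ± 2.04 to 10.8 ± 1.39 CPM (log2 fold change -0.57, SE 0.13, edgeR adjusted p = 0.0186), and 20 of 23 cholesterol genes had negative estimates with a median of -0.23. *Mvd*, an enzyme of that pathway, stood at 21.0 ± 7.28 and 9.78 ± 3.96 CPM, with 15.1 CPM in the highest ZT21 mouse, and did not pass. No gene passed in the lists of fatty acid elongation (14 tested), triglyceride synthesis (20), FOXO targets (22), insulin signalling (26), adipose secreted factors (19), amino acids (22) or haem (16).

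The lists of RNA and protein synthesis gave 1 call, against 2.06% of all tested genes. *Ddx5*, an RNA helicase, fell from 661, 652, 660 and 641 CPM to 512, 507, 540 and 581 CPM (log2 fold change -0.29, SE 0.06, edgeR adjusted p = 0.0140), the only call of 39 splicing genes. Of 53 cytosolic ribosomal protein genes 50 had negative estimates with a median of -0.10, and of 26 ribosome biogenesis genes 19 had, with a median of -0.09. None of the genes of either list passed. All ZT21 mice lay below all ZT18 mice in 6 of the 53 and 7 of the 26, against 5.84% of all tested genes, and above them in none. The 26 summed to between 688.5 and 704.2 CPM at ZT18 and between 588.5 and 652.5 CPM at ZT21, without overlap. The nuclear genes of oxidative phosphorylation were similar in the signs of their estimates, with 40 of 45 negative and a median of -0.08. No gene passed among 31 of the proteasome, 18 of the integrated stress response, 19 of antioxidant defence, 4 cold-inducible RNA-binding genes or 28 of the extracellular matrix.

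The chromatin remodelling gene *Chd4* rose from 302, 251, 272 and 300 CPM to 360, 368, 369 and 386 CPM, the largest rise in CPM among called genes outside the mitochondrial genome (log2 fold change 0.40, SE 0.09, edgeR adjusted p = 0.0157). *Ccne1*, encoding cyclin E1, rose from 1.59 ± 0.261 to 3.58 ± 0.530 CPM (log2 fold change 1.17, SE 0.25, edgeR adjusted p = 0.0158). With *Cdkn1a* it made 2 rises and no fall among 26 cell cycle genes, against 1.24% and 0.826% of all tested genes. Of the 26 estimates 19 were positive. Also in the 10 highest genes were *Rgs9bp*, an anchor for a G protein regulator, *Il17rb*, a receptor for interleukin 25, *Fmo4*, a flavin monooxygenase, and *Asic3*, an acid-sensing channel. They rose between 2.28-fold and 2.89-fold, from means of 0.593, 0.858, 2.79 and 1.34 CPM, and the 2 predicted genes *BC037032* and *Gm13071* completed the 10. *Rgs9bp*, *Il17rb* and the 2 predicted genes had means below 1 CPM at ZT18. They met the limit of 1 CPM, a mean over the 8 libraries, through the ZT21 mice. The calls of *Il17rb*, *Gm13071*, *Asic3* and *Rgs9bp* were lost in 12, 9, 8 and 6 of 18 alternatives. *A330023F24Rik*, a transcript that contains *Mir29b-2* and *Mir29c*, fell from 20.3 ± 2.10 to 7.03 ± 1.30 CPM (log2 fold change -1.53, SE 0.20, edgeR adjusted p = 0.000545), which measures the host transcript and not the mature miRNAs. The antisense gene *Cd46* overlaps 11.5% of its exonic bases.

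Markers of cells other than brown adipocytes were compared for the same mice. Of 18 tested genes of endothelial and mural cells, *Kdr*, the VEGF receptor, fell from 333, 285, 291 and 268 CPM to 218, 239, 240 and 240 CPM (log2 fold change -0.33, SE 0.08, edgeR adjusted p = 0.0364), a call lost in 10 of 18 alternatives. *Emcn*, endomucin, fell from 38.5 ± 4.50 to 27.9 ± 1.58 CPM (log2 fold change -0.47, SE 0.09, edgeR adjusted p = 0.00612). These were the 2 calls among the 18, both lower, against 0.826% of all tested genes. The whole list summed to between 2100 and 2372 CPM at ZT18 and to between 1960 and 2153 CPM at ZT21, with a median log2 fold change of -0.08. In bulk tissue, fewer cells of a type and less RNA per cell cannot be told apart.

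Other called genes with known roles in vessels were *Calcrl*, the receptor of adrenomedullin (log2 fold change -0.52, SE 0.13), and *Adamts1*, a secreted protease (-0.91, SE 0.23), whose call was lost in 9 of 18 alternatives. *Yap1*, a coactivator of the Hippo pathway, fell by 0.60 on the log2 scale (SE 0.14), while *Tead1*, its DNA-binding partner, rose by 1.02 (SE 0.23). *Zhx3*, a zinc finger and homeobox factor, rose 1.85-fold (log2 fold change 0.89) and shared the lowest adjusted p of all genes (0.000545 in edgeR's test). These 5 were chosen after their values were seen.

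No marker passed among 8 tested of blood, 24 of leukocytes, 13 of fibroblasts, 8 of nerve, 6 of white adipocytes or 12 of brown adipocytes. The list medians were -0.26, -0.17, -0.22, 0.19, -0.66 and -0.09 on the log2 scale, and the summed levels overlapped between the time points in all 6 lists. The sums were furthest apart for white adipocytes, at 149 to 250 CPM against 79.8 to 154 CPM. Of 12 genes of epidermis, liver, pancreas and thyroid 1 was tested, *Krt10*, at a summed level under 3 CPM in all 8 libraries. The part of these cells in the 320 calls was not tested.

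The 2 steps of the night also differed in genes outside the heat shock list. The late steps of the next 4 genes did not pass alone, and their early steps were not tested. *Mycl*, a MYC family factor, stood at 3.63 ± 1.73 and 13.6 ± 3.88 CPM at ZT18 and ZT21, a late step of 1.90 at an edgeR adjusted p of 0.0727, after an early step of -1.49. Its difference of 3.39 (SE 0.80, edgeR adjusted p = 0.00991) was the highest among genes of at least 1 CPM past the threshold, followed by *Slc25a34* (2.97, SE 0.88) and *Ehhadh* (2.91, SE 0.70), a peroxisomal enzyme of fatty acid oxidation. Without ZT15 mouse 1 the difference of *Mycl* was 4.30. The call of *Slc25a34* (edgeR adjusted p = 0.0396) was lost in 12 of 25 alternatives, with an edgeR adjusted p of up to 0.0903 without ZT12 mouse 2. *Phyhip* stood with *Hspa1b* and *Hspa1a* at the other end (-4.50, SE 0.81), and was at -3.87 without ZT18 mouse 1, whose 18.4 CPM exceeded the 3.27 to 8.89 CPM of the other ZT18 mice.

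Among the genes of the late step, *Zhx3* (difference 1.19), *Cdkn1a* (1.58), *Zbtb16* (2.60), *Mt2* (2.53) and *Klf9* (0.82) rose late with an early step between -0.69 and -0.08, and all 5 differences passed the test. The difference contains the late step itself, and 74.7% of the 320 called genes passed it, against 6.68% of all tested genes. *Tead1* and *Chd4*, which also rose late, did not pass it (edgeR adjusted p = 0.584 and 0.141). For *Npas2* (1.04, SE 0.97) and *Nr1d2* (0.08, SE 0.26) no difference between the steps was shown, and *Clock* likewise moved by 0.30 early and 0.41 late. *Per2* differed (-1.78, SE 0.32, edgeR adjusted p = 0.00115), with an early step of 0.40. *Nr1d1* and *Cry1*, which had estimates near 0 in the late step, had early steps of -1.90 and 0.87, and both passed the test of the difference.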

How the data were processed

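RNA of snap-frozen iBAT was sequenced as stranded 100 bp paired-end libraries on a BGI platform. The authors aligned reads to mm10 with GSNAP and deposited raw read counts per Ensembl gene made with HTSeq (0.6.1), with no normalization; whether counting used strand is not given in the sources used here. Symbols, positions and biotypes came from GENCODE M21 (GRCm38), which matched 50462 of 50686 identifiers. The 8 libraries held between 17387313 and 18254659 counts, and their number of 4 mice per group limits precision.

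Counts of all 32 libraries were fitted with edgeR 4.0.16 in R 4.3.3 (filterByExpr by time point, TMM, quasi-likelihood test, 8 time points as groups, no replicate block). The contrasts were ZT21 minus ZT18, and this step minus ZT15 minus ZT12, with Benjamini-Hochberg adjustment over 15505 genes. CPM are TMM-scaled, except the muscle and list sums and the mitochondrial shares, which use library totals. Folds are those fitted by edgeR, not ratios of the printed means. SE is the log2 fold change over the root of the F statistic, and intervals are 95%. The fit was tested on simulated data. No per-sample column was left unused. P-values measure the spread between mice.

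Genes were named by rule. It took the 10 highest and 10 lowest log2 fold changes and the 5 largest rises and falls in CPM. These came from called genes without overlap and with a mean of at least 1 CPM over the 8 libraries, which 1 group alone can supply. Further genes were list members and the 3 highest and 3 lowest called step differences of genes with a mean of at least 1 CPM over 16 libraries. Left out here is 1 gene named by this rule, and predicted genes are partly given by count. Genes outside the rule are said to be chosen after their values were seen, or are quoted as uncalled list members. The comparison and the lists were chosen with earlier results of these data known. Alternatives were other scaling (library size, DESeq2 size factors), DESeq2 1.42.0, other filters and thresholds, fewer libraries, a replicate block and muscle transcripts as a covariate.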

Additional observations from a re-analysis of the deposited data

Results flagged for a closer look

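In 160 groups of 4 mice (80 named genes at 2 time points), 4 mice stood apart from the other 3 of their group by the 95% limit of Dixon's test, where chance gives about 1 in 20 groups. *Mt2* was at 5.73 CPM in ZT18 mouse 4 against 1.80 to 2.09 CPM in the others. *Adamts1* was at 41.2 CPM in ZT18 mouse 3 against 26.3 to 27.2 CPM. *Kdr* was at 218 CPM in ZT21 mouse 1 against 239 to 240 CPM, and *Dnajb4* at 53.3 CPM in ZT18 mouse 1 against 56.9 to 57.6 CPM. The high *Mt2* and *Adamts1* values narrow and widen the change at ZT21 respectively.

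Late and early steps of the night differed in edgeR's test of the difference for the 6 genes named by rule. *Hspa1b* (-4.97, late step -1.64, early step 3.33), *Hspa1a* (-4.58, -1.39 and 3.19) and *Phyhip* (-4.50, -1.87 and 2.64) had a negative late step after a positive early step. *Mycl* (3.39, late step 1.90, early step -1.49), *Slc25a34* (2.97, 1.61 and -1.36) and *Ehhadh* (2.91, late step positive, early step -1.79) had the opposite signs. None of the 6 late steps passed the threshold alone.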

How the results depend on the processing

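All 320 genes kept their direction in every alternative in which they were tested, so the alternatives bear on how many passed. The alternatives use the same mice, which did not overlap in 305 of the 320, so the kept direction was largely fixed in advance. Against 320 genes, 187 passed with library size alone, 190 with no filter, 539 with the DESeq2 Wald test, 649 with the 8 libraries fitted alone and 55 at an adjusted p under 0.01. No gene passed edgeR's test against a 1.5-fold change (0, with 217 at an unadjusted p under 0.05), and 0 passed without the 4 libraries rich in muscle transcripts (1323 unadjusted), an alternative chosen after seeing the data that leaves 2 mice a group. With muscle as a covariate, also chosen after seeing the data, 327 genes and 1094 step differences passed. Leaving out a mouse gave between 101 and 211 genes: 141, 133, 189 and 211 without ZT18 mice 1 to 4, and 101, 205, 172 and 167 without ZT21 mice 1 to 4. These fits hold fewer samples by construction, and between 10 (ZT18 mouse 4) and 26 (ZT21 mouse 1) of the named genes lost their call. Over all alternatives the calls of *Klf9* and *Calcrl* were lost in 8 of 18 and those of *Mt2* and *Dusp6* in 7 of 18. The calls of *mt-Rnr1* and *mt-Rnr2* were lost in 7 of 17. Against 1035 step differences, 647 passed with no filter, 39 at 1.5-fold and 334 under 0.01, and between 648 (without ZT21 mouse 1) and 1163 (without ZT15 mouse 1) without single mice, with 666 without ZT18 mouse 1 and 651 without ZT15 mouse 4; with library size alone 856 passed, 31.3% of them higher against 46.4%.

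The deviations of same-numbered mice correlated at -0.64, 0.55, 0.57 and -0.76, so the numbers do not pair the mice; a replicate block gave 292 and 967 genes, and 1 of the 8 mice correlated best with its own number. The deviations went with muscle transcripts: all pairs alike in having sums above or below 1000 CPM correlated positively (0.44 to 0.74) and all unlike pairs negatively (-0.41 to -0.76). Signs turned for uncalled genes near 0: over the fits without single mice, *Cry1* lay between -0.0916 and 0.0162, *Nr1d1* between -0.192 and 0.198 and *Mt1* between -0.127 and 0.0323. Without the muscle-rich libraries *Nr1d1* was at 8e-04 and *Mt1* at 0.13. In the same fit *Zbtb16* was at 1.69, *Mt2* at 2.55 and *Dusp4* at -0.57; the cause was not tested.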
